A study of Mus musculus with 6 samples.

Results

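Rab proteins are small GTPases that mark the membranes of a cell's transport routes. The genes described here are the 59 protein-coding mouse genes whose symbol is Rab followed by a number, with an optional letter and digit, out of 28564 gene entries in the count table. Proteins with longer or other names, such as the Rab interactors and the Rab-like genes, are not members of this family list. Of the 59 genes, 47 passed the minimum count and were tested, and 12 did not. The symbols came from matching the Ensembl IDs to the GENCODE M21 annotation of mm10.

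The study set 3 Apln-/- male mice against 3 wild-type C57Bl/6 males, all 13 weeks old. Apln encodes apelin, a secreted peptide that acts through the receptor Aplnr. From each mouse, single live small-intestinal crypt cells that carried EpCAM and CD44 but neither CD31 nor CD45 were sorted after digestion with Liberase TL, and their RNA was amplified and sequenced in bulk. The sort is broad, so a library holds stem, dividing, secretory and other epithelial cells. The sources used here do not give the deleted part of Apln, whether the groups were littermates, or how many cells went into a library.

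A Rab protein switches between an active form with bound GTP and an inactive form with bound GDP. Exchange factors load GTP, GTPase-activating proteins trigger its hydrolysis, and the active form recruits effectors that move, tether or fuse vesicles. A lipid tail holds Rab proteins in membranes, and the GDP dissociation inhibitors take the inactive form back out. In the gut epithelium, Rab8a, Rab11a, Rab11b and Rab25 serve transport to the apical surface, while the Rab3 and Rab27 proteins act on the secretory granules of hormone- and mucus-releasing cells.

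The libraries held 23046880 to 26513481 counts. The 5 most abundant entries took 77.3 to 78.9% of the counts in knockout libraries and 70.7 to 75.3% in wild-type libraries, which left 5144725 to 5623112 and 6037237 to 7616648 counts for all other entries. Apln had 0, 0 and 0 counts in knockout libraries, against 29, 7 and 5 in wild-type libraries, at least 10.2-fold lower (3 counts over the group as the floor), or at least 4.22-fold without wild-type library 1. Epcam and Cd44 were present in all 6 libraries, with Epcam at 292, 338 and 299 CPM in knockout and 300, 280 and 303 CPM in wild-type cells. Endothelial marker genes, of which 4 of the 5 listed had an entry, summed to 0.0923 to 0.938 CPM in knockout and 0.284 to 1.43 CPM in wild-type libraries. Blood-derived markers summed to 7.80 to 8.41 CPM in knockout and 5.11 to 11.3 CPM in wild-type libraries, with Ptprc lower in the knockout without overlap. Fibroblast and muscle markers summed to 5.16, 22.98 and 7.09 CPM in knockout and 16.5, 7.82 and 1.23 CPM in wild-type libraries, and knockout library 2 stood out for Acta2 (6.78 CPM) and Myh11 (10.8 CPM). Levels are given as CPM, the usual count relative to the library total, after trimmed-mean (TMM) scaling. Across all genes, longer transcripts had lower fold changes (Spearman rho = -0.26 across genes, which are not independent replicates). Fold changes corrected for transcript length and GC content are given beside some genes and lists, and genes given without one may have moved as much.

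The summed level of the Rab family did not separate the genotypes. The 59 genes together had 645, 743 and 650 CPM in knockout libraries (679 ± 55.0, SD, n = 3), against 675, 744 and 705 CPM in wild-type libraries (708 ± 35.0, SD, n = 3), and the groups overlapped. The genes of the general routes (Rab1a, Rab7, Rab10 and Rab2a) made up 41.5% of this total in knockout and 41.6% in wild-type cells. The Rab3 genes of regulated secretion made up 3.26, 1.88 and 4.25% of the total in knockout libraries and 5.55, 5.34 and 4.01% in wild-type libraries. The mean shares were 3.13% and 4.97%, and the groups overlapped, since knockout library 3 was above wild-type library 3. The genes with the lowest p-values were Rab3c and Rab1b, both lower in the knockout.

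Across 15122 genes tested by edgeR's quasi-likelihood method, p-values were adjusted by Benjamini-Hochberg, and 0 of 47 Rab genes came under 0.05. The background was 0.172% of all genes tested (0.112% higher and 0.0595% lower in the knockout), and the lowest adjusted p of a Rab gene was 0.127, for Rab3c. DESeq2's Wald test called 2 of the 47 Rab genes, Rab3c and Rab1b, and 3.84% of all genes. Limma voom called 0 Rab genes and 0.37% of all genes. At an unadjusted p under 0.05 there were 8 Rab genes (17.0%, background 15.2%). Of these, 6 were lower (12.8%, background 7.66%) and 2 were higher (4.26%, background 7.53%). The groups did not overlap for 9 genes (19.1%, background 20.9%), of which 6 were lower (12.8%, background 9.56%) and 3 higher (6.38%, background 11.3%). The median log2 fold change, knockout over wild type, was -0.02 over the 47 genes (quartiles -0.27 and 0.22) and -0.01 over all genes tested. As a family, the Rab genes thus differed between the genotypes about as often as other genes did. With 3 mice per group and a common biological coefficient of variation of 0.298, the standard errors of the 47 log2 fold changes ran from 0.14 to 0.97. Small differences were thus not detectable, least of all in the weakly expressed members. Rab3c at -1.02 and the more abundant Rab1b at -0.64 did not pass edgeR's adjusted test either.

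Levels between genes are compared here as CPM per kb of the longest transcript, averaged over the 6 libraries. Rab1a, which acts between the endoplasmic reticulum and the Golgi, was highest at 43.6 CPM per kb. It was followed by Rab7 of late endosomes at 39.3, the epithelial Rab25 at 27.7, Rab2a at 17.2, Rab5c at 14.5 and Rab10 at 12.4 CPM per kb. Below these came Rab6a at 8.25, Rab1b at 7.72, Rab9 at 7.58 and Rab14 at 6.80 CPM per kb. Most neighbours in this order were not separated, since only 7 of 58 adjacent pairs kept their order in all 6 libraries. The first 6 genes did keep theirs. In all, 16 genes were above 5 CPM per kb and 33 above 1. Among those 16, the log2 fold change of largest size was that of Rab1b, at -0.64. Exons of 20 of the 59 genes overlap another gene, and the sources name no strand setting for the counting, so reads of such pairs may be split or shared.

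**Figure D1:**
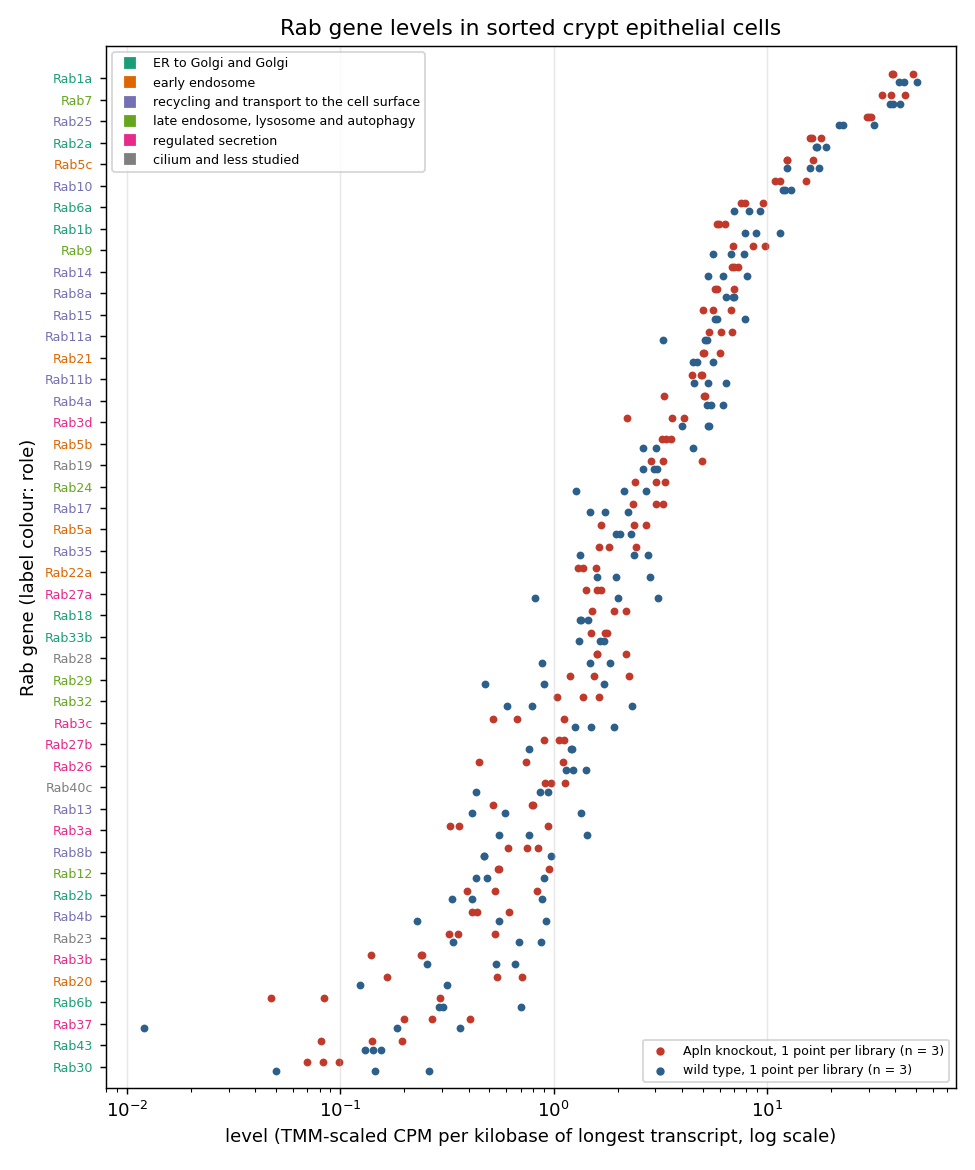
Levels of the 47 tested Rab genes in TMM-scaled CPM per kb of longest transcript (log axis), one point per library, knockout red and wild type blue, with genes ordered by mean level and name colours for roles. Rab1a and Rab7 lie highest and most genes have interleaved points, and the 0 count of Rab20 in wild-type library 1 is not drawn.

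The genes of regulated secretion were the group with the lowest median. This group holds Rab3a, Rab3b, Rab3c and Rab3d, which attend secretory granules before their release, together with Rab26, Rab27a, Rab27b and Rab37. All 8 were tested, 7 of the 8 were below 0, and the median log2 fold change was -0.65 (-0.67 after correction for length and GC content). Their sum was 35.3, 27.2 and 42.1 CPM in knockout libraries, against 54.9, 50.4 and 48.6 CPM in wild-type libraries. The groups did not overlap, and the ratio of the means was 0.679. The roles were assigned with earlier results of these data known, and no test was made of the group.

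Rab3c, a Rab3 form found on secretory granules of neuroendocrine cells, had the lowest p of all Rab genes. It lies at chr13:110054187-110280996 on the minus strand (mm10). It had 5.67, 4.38 and 9.45 CPM in knockout libraries and 12.7, 16.2 and 10.7 CPM in wild-type libraries. Each knockout library was below each wild-type library, and the means were 6.50 ± 2.63 and 13.2 ± 2.78 CPM (SD, n = 3 each). The log2 fold change was -1.02 ± 0.28 (SE), with an adjusted p of 0.127 (edgeR quasi-likelihood, Benjamini-Hochberg). After correction for length and GC content it was -0.91, with an adjusted p of 0.221 from the same test.

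Rab3d, which is known from exocrine secretory cells, was the most abundant Rab3 gene. It lies at chr9:21907491-21918192 on the minus strand. It had 14.0, 8.58 and 15.9 CPM in knockout libraries, against 20.8, 20.5 and 15.6 CPM in wild-type libraries. Knockout library 3 was just above wild-type library 3, so the groups overlapped. The log2 fold change was -0.56 ± 0.23, and edgeR's adjusted p was 0.271.

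Rab3b, at chr4:108879063-108943324 on the plus strand, is a form of epithelial and endocrine cells. It had 0.797, 0.461 and 0.803 CPM in knockout libraries and 1.79, 2.20 and 0.852 CPM in wild-type libraries. The groups did not overlap, though wild-type library 3 was close to the knockout values. The log2 fold change was -1.22 ± 0.55 (edgeR adjusted p = 0.319), from 44 counts in all knockout libraries and 136 in all wild-type libraries.

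Rab3a, the main synaptic vesicle form of neurons, lies at chr8:70754679-70758677 on the plus strand. It had 0.563, 0.508 and 1.46 CPM in knockout libraries and 2.22, 0.861 and 1.20 CPM in wild-type libraries. The groups overlapped, and the log2 fold change was -0.75 ± 0.60. All 4 Rab3 genes together had 21.0, 13.9 and 27.6 CPM in knockout libraries, against 37.4, 39.8 and 28.3 CPM in wild-type libraries. The highest knockout sum was just under the lowest wild-type sum. The means were 20.8 ± 6.83 and 35.2 ± 6.05 CPM (SD, n = 3 each).

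**Figure D2:**
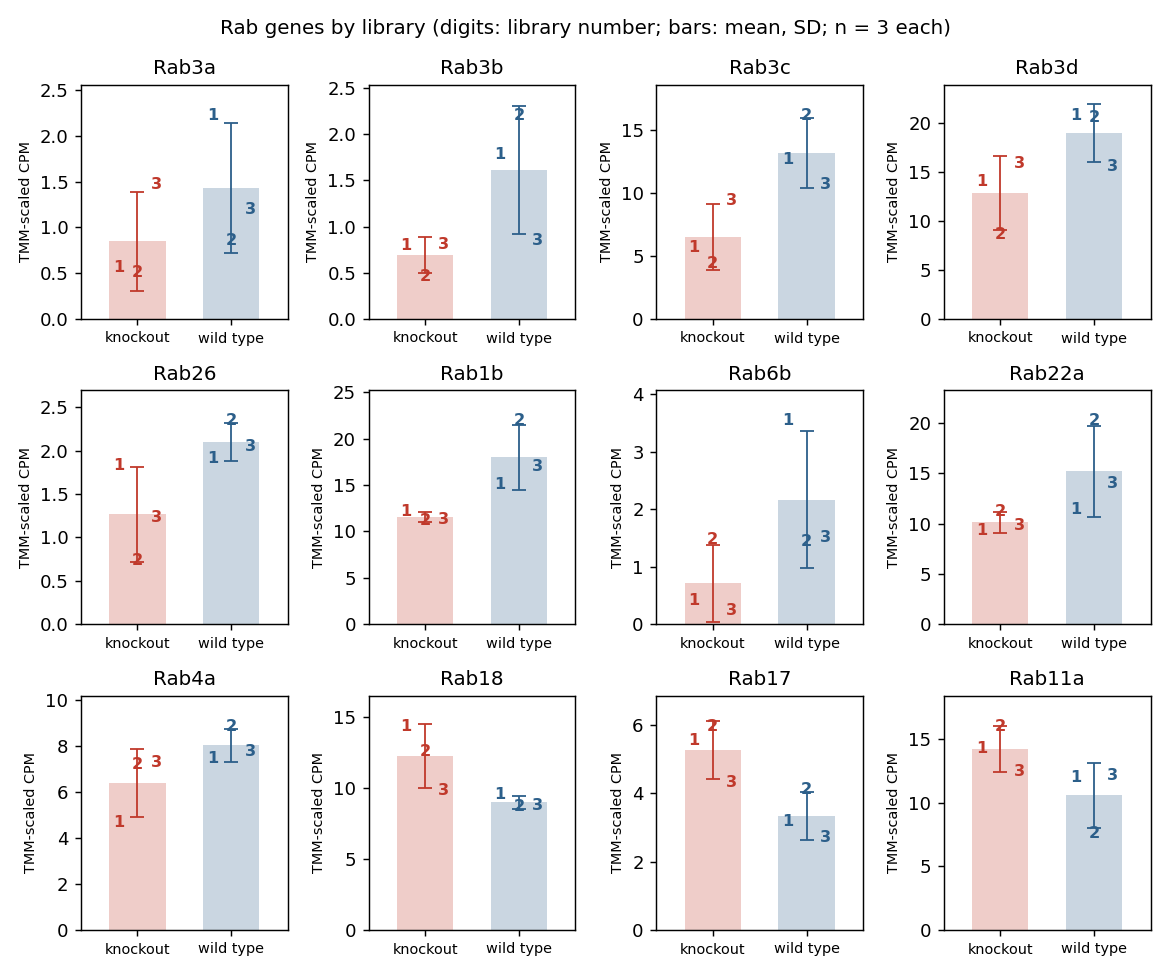
TMM-scaled CPM of Rab3a and of the 11 Rab genes at an unadjusted p under 0.05 or with groups that do not overlap, as knockout and wild-type bars of the mean with SD (n = 3 each), on which digits mark the library numbers. Rab3c has knockout values of 4.38 to 9.45 CPM below wild-type values of 10.7 to 16.2 CPM, and Rab17 has the reverse order.

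The stretches around the annotated starts of the Rab3 genes are shown because these 4 genes were all lower in the knockout. They run from 250 bases before to 50 bases after the start (RefSeq, GRCm38.p6, first listed start), 5′ to 3′ on the gene's strand, with GGGCGG or its complement CCGCCC in capitals.
Rab3a, chr8:70754453-70754752, plus strand: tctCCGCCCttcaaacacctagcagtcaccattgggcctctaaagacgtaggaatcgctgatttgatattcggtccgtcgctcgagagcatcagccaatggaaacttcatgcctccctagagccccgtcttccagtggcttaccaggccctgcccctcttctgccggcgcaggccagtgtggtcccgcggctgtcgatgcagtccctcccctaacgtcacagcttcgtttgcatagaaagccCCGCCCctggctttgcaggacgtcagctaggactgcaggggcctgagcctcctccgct
Rab3b, chr4:108878820-108879119, plus strand: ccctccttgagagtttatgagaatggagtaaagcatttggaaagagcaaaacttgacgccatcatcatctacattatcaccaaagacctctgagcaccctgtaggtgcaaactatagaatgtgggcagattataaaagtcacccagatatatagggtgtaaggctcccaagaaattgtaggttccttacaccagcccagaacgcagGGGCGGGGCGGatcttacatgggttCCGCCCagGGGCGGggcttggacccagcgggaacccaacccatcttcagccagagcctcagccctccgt
Rab3c, chr13:110280157-110280456, minus strand: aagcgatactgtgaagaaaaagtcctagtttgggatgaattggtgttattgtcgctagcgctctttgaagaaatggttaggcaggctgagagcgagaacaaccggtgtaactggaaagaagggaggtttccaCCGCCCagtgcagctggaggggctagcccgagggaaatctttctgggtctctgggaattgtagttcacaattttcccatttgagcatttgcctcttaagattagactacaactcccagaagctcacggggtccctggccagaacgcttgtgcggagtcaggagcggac
Rab3d, chr9:21918134-21918433, minus strand: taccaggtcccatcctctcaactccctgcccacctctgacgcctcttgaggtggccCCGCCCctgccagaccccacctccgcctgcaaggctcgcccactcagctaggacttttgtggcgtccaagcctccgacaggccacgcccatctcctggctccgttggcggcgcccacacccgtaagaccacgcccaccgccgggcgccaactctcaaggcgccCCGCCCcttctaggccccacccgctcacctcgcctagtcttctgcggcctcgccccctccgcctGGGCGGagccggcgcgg
The windows hold 2, 4, 1 and 3 copies in the order printed. Rab3d is GC-rich at 71.0%, while Rab3b and Rab3c have 51.7% and 50.7% GC, near the median of 52.7% over all windows. Of 60 windows for the 48 Rab genes with an entry, 41 (68.3%) held GGGCGG on either strand, against 35.7% of 32851 windows of all genes of the same length. The median GC content of Rab windows was 61.2%. TATAAA on either strand was in 4 Rab windows (6.67%), against 13.6% of all windows, and among those printed only Rab3b holds it, at position -120 counted from the start. The palindromes TGACGTCA and CATATG were absent from the printed windows. CANNTG was in 68.3% of Rab windows and 72.3% of all windows. CCAAT, on either strand, was in 43.3% and 37.4%. A match of letters is a description and not a binding site.

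Markers of hormone-producing and tuft cells were also lower in the knockout libraries. Of the 10 enteroendocrine markers, which include the granule proteins Chga and Chgb, 6 were lower at an unadjusted p under 0.05 (background 7.66%) and none higher, and none passed the adjusted test (edgeR). They summed to 578, 712 and 681 CPM in knockout libraries, against 1186, 1313 and 838 CPM in wild-type libraries. Of the 7 tuft markers tested, 4 were lower at that p, against the same background. The tuft sums were 55.8, 33.6 and 76.2 CPM in knockout and 93.0, 95.0 and 126 CPM in wild-type libraries. Paneth markers went the other way, at 1075 to 2557 CPM in knockout and 644 to 1014 CPM in wild-type libraries, with 5 of 7 genes higher at an unadjusted p under 0.05 (background 7.53%). Markers of dividing cells summed to 410 to 476 CPM in knockout and 519 to 621 CPM in wild-type libraries. This gap lay in Mki67, at 168 to 234 CPM in knockout and 312 to 404 CPM in wild-type libraries, while the other 5 dividing-cell markers were above 0 and the list's median log2 fold change was 0.17. The stem, goblet and enterocyte sums overlapped between the groups. The goblet sums were 2251 to 2411 CPM in knockout and 1508 to 4956 CPM in wild-type libraries, a wide wild-type range. Wild-type library 3 held the 4956. Of the 7 goblet genes, 2 were lower at an unadjusted p under 0.05 (background 7.66%) and none higher, with a median log2 fold change of -0.17. These were Spdef, without overlap, and Muc2, whose groups overlapped. Muc2 was at 416, 540 and 581 CPM in knockout and 714, 520 and 1899 CPM in wild-type libraries. No marker in these lists was at 0 in all libraries. In bulk RNA, fewer cells of a type and less RNA per cell cannot be told apart.

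Set against the enteroendocrine sum, the Rab3 sum was 3.64, 1.96 and 4.05% in knockout libraries and 3.16, 3.03 and 3.38% in wild-type libraries. These shares overlapped, with means of 3.22 ± 1.11% and 3.19 ± 0.176% (SD, n = 3 each). Against the tuft sum, Rab3 was 37.7, 41.4 and 36.2% in knockout and 40.2, 41.9 and 22.4% in wild-type libraries, which overlapped too. Against the Paneth sum it was 0.822 to 1.68% in knockout and 2.79 to 6.18% in wild-type libraries, with no overlap. Against the goblet sum it was 0.928, 0.619 and 1.14% in knockout and 1.55, 2.64 and 0.571% in wild-type libraries, which overlapped. Knockout library 2 had the lowest Rab3c, Rab3d and tuft values of its group but the highest enteroendocrine sum. The part of these cell types in the Rab3 result was not tested further.

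**Figure D3:**
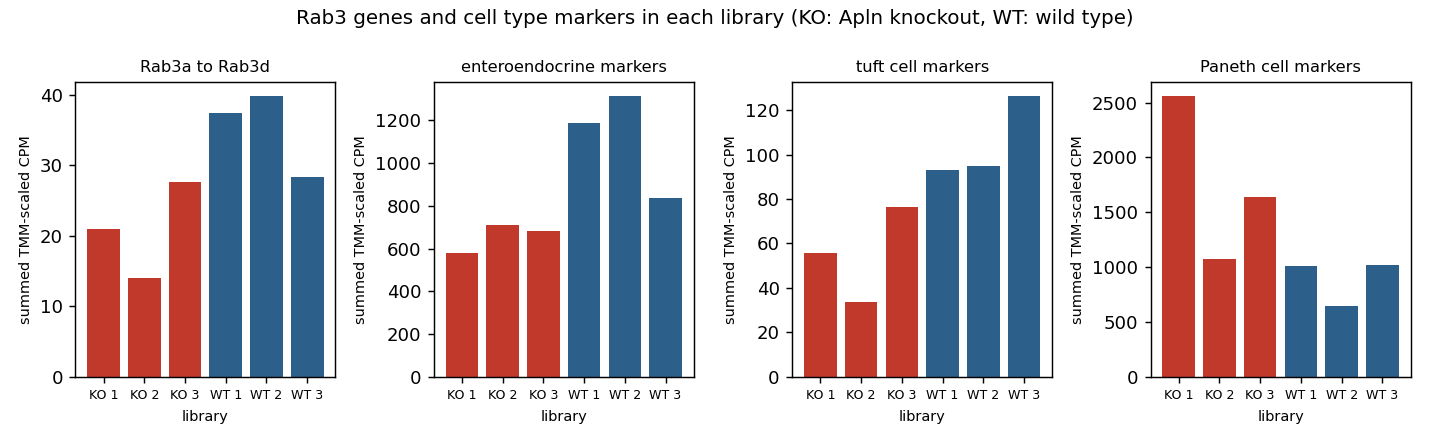
Summed TMM-scaled CPM of Rab3a to Rab3d and of the enteroendocrine, tuft and Paneth marker lists, one bar per library, knockout red and wild type blue. Each knockout bar is below each wild-type bar in the first 3 panels, and each is above in the Paneth panel.

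The other 4 genes of the secretion group were at an unadjusted p above 0.05. Rab26, of secretory granule maturation and autophagy, had 1.83, 0.738 and 1.23 CPM in knockout libraries and 1.90, 2.34 and 2.05 CPM in wild-type libraries. Its groups did not overlap, with a log2 fold change of -0.73 ± 0.45 and an unadjusted p of 0.130 in edgeR. Its exons overlap those of Traf7, so its counts are uncertain. Rab27a and Rab27b, which dock granules at the plasma membrane, had log2 fold changes of -0.34 ± 0.38 and -0.06 ± 0.24. Both overlapped between the groups, with Rab27b at 7.27, 6.18 and 7.70 CPM in knockout and 8.29, 5.27 and 8.42 CPM in wild-type cells. Rab37, known from mast cell granules and other secretory cells, was the member above 0, at 0.65 ± 0.86.

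Of the genes between the endoplasmic reticulum and the Golgi, 10 of 11 were tested, with 6 below 0 and a median log2 fold change of -0.06, or -0.15 after the length and GC correction. The group held both Rab1 genes, of which Rab1b had the lower p. Rab1b, at chr19:5099205-5107072 on the minus strand, had 12.1, 11.2 and 11.3 CPM in knockout libraries, against 15.0, 21.9 and 17.0 CPM in wild-type libraries. Every knockout library was below every wild-type library, with means of 11.6 ± 0.506 and 18.0 ± 3.54 CPM (SD, n = 3 each). Its log2 fold change was -0.64 ± 0.19, and edgeR's adjusted p was 0.150 (-0.68 and 0.199 after the length and GC correction). Rab1a, its close relative and the most abundant Rab, had 109, 136 and 110 CPM in knockout and 118, 142 and 124 CPM in wild-type libraries. The Rab1a groups overlapped, and its log2 fold change was -0.11 ± 0.15, or -0.25 after the correction.

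Within each library, Rab1b was 11.1, 8.22 and 10.3% of Rab1a in knockout libraries and 12.8, 15.4 and 13.7% in wild-type libraries. The means were 9.89 ± 1.51% and 13.9 ± 1.32% (SD, n = 3 each). A two-sided exact permutation test gave p = 0.1, the smallest that 3 against 3 allows, and 0.367 after adjustment over 11 pairs of related Rab genes. Rab3d over Rab3c, at 246, 196 and 168% in knockout and 164, 127 and 146% in wild-type libraries, also did not overlap. Rab6b over Rab6a was 1.74, 4.82 and 0.929% in knockout and 13.3, 4.87 and 6.69% in wild-type libraries. Its groups did not overlap but nearly met in library 2. Both pairs had the same exact p as Rab1b over Rab1a. For the other 8 pairs the exact p was 0.2 to 0.9. The windows around the starts of the Rab1 genes, built as above, are shown as those of a pair with unlike values.
Rab1a, chr11:20201162-20201461, plus strand: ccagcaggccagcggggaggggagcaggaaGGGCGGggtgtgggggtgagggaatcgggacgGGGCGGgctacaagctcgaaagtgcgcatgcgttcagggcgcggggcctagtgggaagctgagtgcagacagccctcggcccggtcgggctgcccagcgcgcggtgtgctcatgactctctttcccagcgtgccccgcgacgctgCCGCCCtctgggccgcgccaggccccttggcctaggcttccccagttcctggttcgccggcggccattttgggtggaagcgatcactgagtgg
Rab1b, chr19:5106947-5107246, minus strand: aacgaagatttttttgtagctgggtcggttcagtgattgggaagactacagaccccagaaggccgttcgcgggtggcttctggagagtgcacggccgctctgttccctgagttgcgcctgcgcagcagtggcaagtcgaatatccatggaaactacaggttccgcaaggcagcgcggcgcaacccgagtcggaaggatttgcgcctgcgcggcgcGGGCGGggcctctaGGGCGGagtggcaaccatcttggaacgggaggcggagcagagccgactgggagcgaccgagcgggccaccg
They hold 3 and 2 copies of GGGCGG or its complement and have 70.3% and 63.3% GC.

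The Rab6 pair also had unlike values, at low counts of Rab6b. Rab6b, the neuron-enriched form of the Golgi protein Rab6, had 0.422, 1.48 and 0.236 CPM in knockout libraries and 3.53, 1.45 and 1.51 CPM in wild-type libraries. Knockout library 2 lay within the wild-type range. The log2 fold change was -1.59 ± 0.66 (edgeR adjusted p = 0.279), on 46 counts in knockout and 179 in wild-type libraries. Without one library at a time it ran from -2.69 to -1.07. Rab6a, the widespread form, had 24.2, 30.6 and 25.4 CPM in knockout and 26.5, 29.7 and 22.6 CPM in wild-type cells, with a log2 fold change of 0.03 ± 0.17.

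Rab18, of the endoplasmic reticulum and lipid droplets, was the member of this group above 0 with an unadjusted p under 0.05. It had 14.3, 12.6 and 9.83 CPM in knockout libraries, against 9.48, 8.64 and 8.77 CPM in wild-type libraries. The groups did not overlap, with a log2 fold change of 0.45 ± 0.20 and an edgeR adjusted p of 0.319. Rab2a, which acts at the Golgi and in secretory granule formation, had 34.0, 38.3 and 34.7 CPM in knockout and 36.2, 40.5 and 36.6 CPM in wild-type libraries. Its groups overlapped, with a log2 fold change of -0.08 ± 0.14, or -0.26 after the correction. Rab2b, Rab33b and Rab43 had log2 fold changes from -0.03 to 0.10. Rab30, a Golgi Rab, was at -0.84 ± 0.62. Rab33a had 5 counts in knockout and 6 in wild-type libraries in all and was not tested.

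Among the early endosome genes, 6 of 7 were tested, 3 of them below 0, with a median log2 fold change of 0.04. Rab22a, which sends cargo from early endosomes to recycling, was the one of lowest p. It lies at chr2:173659760-173707343 on the plus strand. It had 9.33, 11.3 and 9.78 CPM in knockout libraries, against 11.4, 20.2 and 14.0 CPM in wild-type libraries. Knockout library 2 and wild-type library 1 nearly met. The log2 fold change was -0.59 ± 0.23, with an edgeR adjusted p of 0.245, and -0.43 after the length and GC correction, at an unadjusted p of 0.0736. Rab5c, a form of the main early endosome Rab, had 24.5, 32.2 and 24.4 CPM in knockout and 31.3, 34.5 and 24.3 CPM in wild-type cells. Rab5a and Rab21, which also serve early endosomes, had log2 fold changes of 0.09 ± 0.24 and 0.12 ± 0.16, and Rab5b had the same mean of 10.7 CPM in both groups. Rab20 had 21, 5 and 16 counts in knockout libraries and 0, 5 and 14 in wild-type libraries, too few to separate the groups.

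All 13 genes of recycling and transport to the cell surface were tested, with 7 below 0 and a median of -0.13. The highest of them per length was Rab25, an epithelial relative of Rab11. It had 31.8, 33.3 and 32.4 CPM in knockout libraries and 24.7, 23.6 and 34.3 CPM in wild-type libraries. Wild-type library 3 was the highest of all 6, and the log2 fold change was 0.24 ± 0.17, or 0.08 after the length and GC correction. Rab17, an epithelial Rab of transcytosis in polarised cells, lies at chr1:90958133-90969661 on the minus strand. It had 5.53, 5.95 and 4.30 CPM in knockout libraries, against 3.17, 4.10 and 2.71 CPM in wild-type libraries. Each knockout value was above each wild-type value, with a log2 fold change of 0.66 ± 0.28 and an edgeR adjusted p of 0.293. After the length and GC correction it was 0.57, at an unadjusted p of 0.0738.

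Rab11a, of the apical recycling endosome, had 14.3, 16.0 and 12.4 CPM in knockout libraries and 12.0, 7.61 and 12.2 CPM in wild-type libraries. The groups did not overlap but nearly met, with a log2 fold change of 0.43 ± 0.22 (edgeR adjusted p = 0.388) and 0.24 after the length and GC correction. Its close relative Rab11b was at -0.18 ± 0.16 (-0.05 after the correction), with overlapping groups. Rab4a, of rapid recycling from early endosomes, had 4.69, 7.20 and 7.28 CPM in knockout libraries and 7.46, 8.85 and 7.76 CPM in wild-type libraries. Its groups did not overlap, with a log2 fold change of -0.33 ± 0.24 (-0.49 after the correction) and an edgeR adjusted p of 0.560. Rab10, a basolateral and recycling Rab, and Rab8a, needed in mice for apical delivery in enterocytes, had log2 fold changes of 0.03 ± 0.16 and -0.13 ± 0.15. Rab14, Rab15, Rab35, Rab13, Rab4b and Rab8b lay between -0.21 and 0.20, all with overlapping groups. After the correction, Rab13 and Rab4b were at -0.33 and -0.34.

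**Figure D4:**
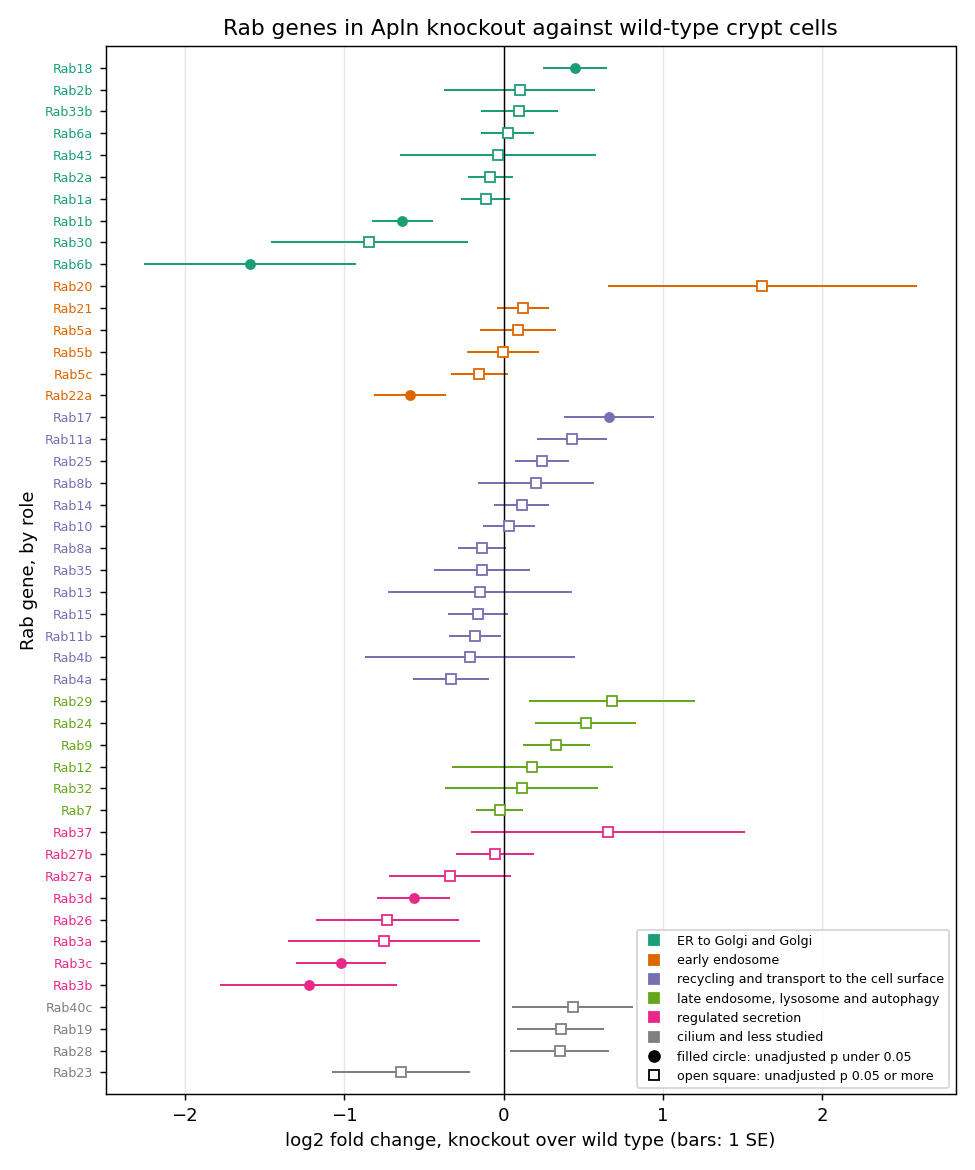
Log2 fold change (knockout over wild type) for the 47 tested Rab genes, with bars of 1 SE, ordered and coloured by role, and filled circles for an unadjusted p under 0.05. The secretion genes lie mostly left of 0, Rab6b is lowest at -1.59, and Rab20 is highest at 1.62 with the widest error.

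The genes of late endosomes, lysosomes and autophagy had the opposite balance, with 1 of the 6 tested below 0 and a median log2 fold change of 0.26, or 0.08 after the length and GC correction. These transcripts were short, with a median of 1938 bases against 3010 over all genes tested. Rab7, which brings late endosomes to lysosomes, had 74.4, 95.4 and 82.4 CPM in knockout libraries and 84.6, 90.6 and 81.4 CPM in wild-type libraries, with overlapping groups. Its log2 fold change was -0.02 ± 0.15, or -0.15 after the correction. Rab9, of transport from late endosomes to the Golgi, had 10.0, 12.4 and 14.2 CPM in knockout and 11.3, 9.81 and 8.07 CPM in wild-type libraries, a log2 fold change of 0.33 ± 0.21, or 0.10 after the correction. Rab24, linked to autophagy, had 4.36, 6.00 and 5.43 CPM in knockout and 4.92, 2.31 and 3.85 CPM in wild-type libraries, at 0.51 ± 0.31. The groups overlapped in both. Rab12, Rab29 and Rab32 were at 0.18, 0.68 and 0.11, with standard errors from 0.48 to 0.52. After the correction they were at 0.05, 0.49 and -0.04. A Rab7 pseudogene, Rab7-ps1, had 190, 261 and 195 counts in knockout and 254, 340 and 292 in wild-type libraries, so a share of Rab7 reads may be counted there.

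Of the 9 cilium-linked and less studied genes, 4 were tested, with a median log2 fold change of 0.35, or 0.18 after the length and GC correction. Rab23, a negative regulator of Hedgehog signalling, had 2.34, 1.57 and 1.42 CPM in knockout and 3.85, 3.03 and 1.48 CPM in wild-type libraries, at -0.64 ± 0.43. Rab19, which has been tied to cilium growth in cultured cells, had 5.11, 7.80 and 4.49 CPM in knockout and 4.80, 4.65 and 4.13 CPM in wild-type libraries, at 0.36 (0.19 after the correction). Both overlapped between groups. Rab28 and Rab40c were at 0.35 (0.17 after the correction) and 0.43, also with overlap.

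The 12 genes under the minimum count gave few reads, and they are listed by their raw counts. A floor of 3 counts was worth 0.138 to 0.142 CPM per knockout library and 0.0946 to 0.119 CPM per wild-type library. Rab36 had 3, 9 and 3 counts in knockout libraries and 33, 31 and 8 in wild-type libraries. Rab40b had no count in knockout libraries and 7, 11 and 0 in wild-type libraries, at least 4.48-fold lower, or 2.63-fold without wild-type library 2. Rab44, a large Rab of mast cells and other blood cells, had no count in knockout libraries and 27, 0 and 2 in wild-type libraries, so it was at least 7.22-fold lower, with wild-type library 1 carrying 27 of 29 counts and no bound without it. Rab31 had 15, 9 and 5 counts in knockout and 3, 9 and 9 in wild-type libraries, and Rab39b 9, 4 and 1 against 1, 2 and 2. The other 7 (Rab7b, Rab9b, Rab33a, Rab34, Rab38, Rab39 and Rab42) had at most 11 counts in any library and 0 in at least one. Of these, Rab38 and Rab7b had counts only in the knockout, 6 in library 1 and 4 in library 2. They were at least 2.68-fold and 1.79-fold higher there, with no bound without that library.

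Of 133 regulators and effectors of Rab proteins taken from a list, 124 were tested. In edgeR, 0 passed the adjusted test (background 0.172%), and 17 were at an unadjusted p under 0.05 (13.7%, background 15.2%). Of these, 14 were lower (11.3%, background 7.66%) and 3 were higher (2.42%, background 7.53%). The log2 fold change was below 0 for 88 of the 124 (71.0%), against 50.5% of all genes tested. Their median was -0.15, and -0.09 after the length and GC correction, which left 8 lower at that p. The share of all genes that were lower at that p after the correction was not counted. In either direction the correction left 12 of the 124 at that p, with 11.7% of all genes, so the counts fell in general. Their median transcript length was 4973 bases, against 2900 for the tested Rab genes. Without one library at a time, the count at an unadjusted p under 0.05 ran from 8, without knockout library 1, to 23, without wild-type library 2. The shares of all genes at that p in these fits were 8.42% and 13.8%.

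The effectors had the lowest median of these lists, at -0.27 over the 46 tested, with 8 lower (17.4%, background 7.66%) and 1 higher (2.17%, background 7.53%) at an unadjusted p under 0.05. After the length and GC correction the median was -0.19, with 5 lower. The 11.7% of all genes at that p then counts both directions. The share of lower genes alone was not counted, so the 5 have no matching background. Rph3al, known as Noc2, binds Rab3 and Rab27 on the granules of endocrine cells. It had 3.19, 5.68 and 6.24 CPM in knockout libraries, against 10.9, 16.4 and 8.17 CPM in wild-type libraries. The groups did not overlap, with a log2 fold change of -1.23 ± 0.31 and an edgeR adjusted p of 0.101. Appl2, a Rab5 effector of early endosomes, had 11.5, 8.12 and 9.73 CPM in knockout and 15.9, 14.1 and 18.9 CPM in wild-type libraries. It did not overlap either, at -0.73 ± 0.20 (edgeR adjusted p = 0.127).

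Exchange factors and GTPase-activating proteins had the same median of -0.13, over 38 and 32 genes. Of these, 4 (10.5%) and 2 (6.25%) genes were lower at an unadjusted p under 0.05 (background 7.66%). After the length and GC correction the medians were -0.03 and -0.02, with 2 and 1 genes lower at that p. Over all genes, 11.7% were at that p in either direction after the correction, which is not a background for lower genes alone. Among the activating proteins, Tbc1d25, which acts on Rab33b in autophagy, had 1.78, 2.08 and 2.27 CPM in knockout libraries and 4.64, 4.34 and 4.73 CPM in wild-type libraries. The libraries of each genotype lay close together and apart from the other, with a log2 fold change of -1.16 ± 0.30 (edgeR adjusted p = 0.104). Tbc1d30, described as acting on Rab8, was at -0.76 ± 0.32. Of the exchange factors, Trappc10, a subunit of a TRAPP complex, and Sbf1, a myotubularin relative with an exchange domain, were at -0.58 ± 0.19 and -0.65 ± 0.21. Their edgeR adjusted p-values were 0.177 and 0.180.

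The genes of prenylation and membrane extraction had a median of 0.04 over 8 genes. Rabac1, which helps free Rab proteins from their dissociation inhibitor at membranes, was higher, with 6.05, 5.03 and 6.14 CPM in knockout libraries and 2.42, 3.37 and 3.15 CPM in wild-type libraries. Its log2 fold change was 0.94 ± 0.27, with an edgeR adjusted p of 0.139. Gdi2, a GDP dissociation inhibitor, had 107, 126 and 93.1 CPM in knockout and 110, 101 and 80.6 CPM in wild-type libraries. The escort proteins Chm and Chml, which present Rab proteins for lipid attachment, were both at 0.16 ± 0.20.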

How the data were processed

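Bulk RNA-seq of sorted crypt cells from 6 mice was used. The authors deposited raw read counts per gene. Per the submitters' processing notes, STAR 2.6.1, HTSeq and mm10 were used. No source used here gives the strand setting or the annotation release. Per the labels' protocols, RNA was amplified (Ovation Pico WTA V2) before Nextera libraries were made, so duplicate molecules cannot be removed from the counts. IDs were named with GENCODE M21, and 13 of 28564 had no symbol. No column of the table lacked a sample.

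Counts were fitted with edgeR 4.0.16 in R 4.3.3 (filterByExpr, minimum count 10 and total 15, TMM, quasi-likelihood test, Benjamini-Hochberg adjustment over 15122 genes), after the step was tested on simulated data. The standard error is the log2 fold change divided by the square root of the quasi-F. Columns were matched to samples through the sample descriptions, and the libraries are numbered as in the sample titles. P-values measure only the spread between these samples. Alternatives were other scalings, filters, DESeq2 1.42.0, limma 3.58.1 voom, a length and GC correction, a replicate block and leaving out each library.

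The Rab genes, the roles and the lists were chosen with earlier results of these data known. Named with values per library are Rab genes at an unadjusted p under 0.05 or without overlap, the highest and the lowest-p member of each role, and up to 2 regulators of lowest p per list with Gdi2, Chm and Chml. Other Rab genes were named to account for every member, and 1 regulator that the rule names is not reported here.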

Additional observations from a re-analysis of the deposited data

How the results depend on the processing

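The number of genes called over all genes (26) depended on the setting. It was 1 with DESeq2 size factors, upper-quartile scaling, the 5 most abundant entries left out or the length and GC correction, 56 with voom, 117 with at least 1 CPM in 3 libraries, 581 with DESeq2's Wald test and 629 without a filter. It ran from 0 to 358 without one library at a time, with 358 without wild-type library 3. The cause was not tested. The Rab genes called (0) were 2 with DESeq2's Wald test (Rab3c, adjusted p = 0.0169, and Rab1b, adjusted p = 0.0470) and 1 without a filter (Rab3c, adjusted p = 0.00276), and 0 under all other settings run. The Wald test called 3.84% of all genes, and the fit without a filter 2.2%. Rab genes at an unadjusted p under 0.05 (8 of 47) ran from 3 of 48, without knockout library 1, to 13 of 48, without wild-type library 3. The share of all genes at that p moved too, from 15.2% to 8.42% and 19.5% in these 2 fits. There were 4 of 47 Rab genes without wild-type library 1 (all genes 15.0%). There were 5 of 48 without knockout library 2 (all genes 11.1%) and 5 of 48 without knockout library 3 (10.3%). Regulators at that p (17) ran from 8, without knockout library 1 (all genes 8.42%), to 23, without wild-type library 2 (all genes 13.8%). The median log2 fold change of Rab genes (-0.02) was 0.018 with voom, 0.0017 with at least 1 CPM in 3 libraries, and from -0.069 to 0.020 without one library at a time. Of single named genes, Rab7 lay on either side of 0: it was from -0.122 to 0.0592 without one library at a time (0.0592 without knockout library 1, 0.0098 when wild-type library 2 was left out), and -0.159 at its lowest over all alternatives. Over the named genes and the alternatives, direction and side of the threshold were kept 453 times, the threshold was newly passed 9 times, and the sign changed 2 times. That threshold was an adjusted p of 0.05, which no named gene passed in the main fit, so a kept side says little. The 9 passes were those of Rph3al in 3 alternatives, Rab3c and Appl2 in 2 each, and Rab1b and Tbc1d25 in 1 each. Over the 16 alternatives, Rab3c and Rab1b were at an unadjusted p under 0.05 in all 16. Rab3d and Rab6b were so in 13, Rab22a in 11, Rab17 in 10, Rab3b in 6 and Rab18 in 5.

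Whether the replicate numbers in the titles pair the mice was not settled. Same-numbered samples had correlations of 0.0406, 0.0569 and 0.0109 of their deviations from the group means. For samples with unlike numbers the correlations ran from -0.0518 to 0.0169. With a replicate block, 173 genes were called over all genes, and 0 Rab genes. Rab genes at an unadjusted p under 0.05 were 6 (all genes 15.4%). They were 5 with the block and the length and GC correction together (all genes 11.8%). The counts limit Rab3b, Rab6b, Rab20, Rab37 and the untested genes most.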
